A study of Mus musculus with 15 samples.

Results

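The interferon regulatory factors (IRFs) are transcription factors that share a DNA-binding domain with a row of conserved tryptophans and that bind GAAA-containing elements in interferon and interferon-stimulated genes. Their mRNA was described here for the 8 members Irf1, Irf2, Irf3, Irf4, Irf5, Irf7, Irf8 and Irf9, taken by gene symbol from the 22165 genes of the count table, which covers 15 libraries. All 8 were among the 11746 genes that passed the filter on low counts.

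The libraries were bulk tags from the 3′ ends of mRNA of dendritic cells sorted from the thymus. Mice were Itgax-cre Stk11 fl/fl (KO) or wild type (WT), both on a C57BL/6 background and of both sexes. Stk11 encodes the kinase LKB1, and the cre is driven by Itgax, the gene of CD11c, so that recombination is directed at cells that express CD11c. Every mouse, KO and WT alike, had been given Flt3L-secreting B16 melanoma cells under the skin at 8 to 12 weeks of age, which expands dendritic cells, and thymi were taken 9 to 12 days later. The groups were plasmacytoid dendritic cells (pDC, sorted as Siglec-H+ CD11cint) from KO mice in 3 libraries and from WT mice in 3 libraries. Type 2 conventional dendritic cells (cDC2, CD11b+ CD11c+ MHCII+) came from KO mice in 3 libraries and from WT mice in 2 libraries. Type 1 conventional dendritic cells (cDC1, CD8a+ CD11c+ MHCII+) came from KO mice in 2 libraries and from WT mice in 2 libraries. The labels do not say whether libraries of a group came from separate mice, so p-values measure only the spread between these libraries, which may be technical.

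Within the family, IRF8 and IRF4 steer dendritic cell development, IRF8 in cDC1 and pDC and IRF4 in cDC2. IRF3, IRF5 and IRF7 lie latent in the cytoplasm until kinases downstream of nucleic acid sensors phosphorylate them, and IRF7 is the main switch for type I interferon in pDC. IRF9 is the DNA-binding subunit of ISGF3, the complex that turns on interferon-stimulated genes, and IRF1 and IRF2 are an activator and a mostly repressive counterpart at related elements.

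Library totals ran from 3928164 counts in a cDC2 WT library to 12142712 counts in a cDC2 KO library. The smallest member count was 32, for Irf4, and Irf8 had at least 5030 counts in every library. Levels are given as CPM, counts scaled to a common library total. The summed pDC markers lay at 38610 to 43580 CPM in pDC KO and 35300 to 55300 CPM in pDC WT, against 900 to 1873 CPM in the conventional subsets. The summed cDC1 markers lay at 3878 to 4665 CPM in cDC1 KO and 5313 to 5597 CPM in cDC1 WT, against 344 to 2150 CPM elsewhere. The summed cDC2 markers were 774 to 1060 CPM in cDC2 KO and 745 to 843 CPM in cDC2 WT, but also 560 to 654 CPM in pDC, so that list set cDC2 apart from cDC1 more than from pDC. Stk11 itself lay at 33.2 to 43.5 CPM in pDC KO and 40.6 to 66.8 CPM in pDC WT, at 28.2 to 36.1 CPM in cDC2 KO and 34.2 to 34.9 CPM in cDC2 WT, and at 18.4 to 30.6 CPM in cDC1 KO and 35.7 to 54.3 CPM in cDC1 WT. Its KO difference passed the test in none of the subsets, with log2 values of -0.44 ± 0.29 (SE), -0.15 ± 0.33 and -0.88 ± 0.36 in pDC, cDC2 and cDC1. 3′ tags need not cover the floxed exons, whose place the labels do not give, so Stk11 does not check the deletion here. Transcripts of a thymocyte and T cell list summed to 374 to 402 CPM in pDC KO and 381 to 470 CPM in pDC WT, against 27.3 to 159 CPM in the conventional subsets. A B and plasma cell list summed to 310 to 549 CPM in pDC KO and 277 to 449 CPM in pDC WT, with Cd79a at 0 in all pDC libraries, against 67.3 to 92.0 CPM elsewhere. The part of such transcripts in the pDC levels below was not tested. In bulk libraries, fewer cells of a type and less RNA per cell cannot be told apart.

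Irf8 was the most abundant member in all 15 libraries, and its own level was several fold lower in cDC2 than in pDC or cDC1. Per kilobase of exon, Irf8 made up 81.3 ± 4.17% of the summed member levels in pDC KO and 87.3 ± 1.05% in pDC WT (SD, n = 3 each). It made up 40.4 ± 6.20% in cDC2 KO (n = 3) and 47.7 ± 13.5% in cDC2 WT (n = 2). Irf7 followed in cDC2 KO with 21.3 ± 4.36%, second in each library. In cDC2 WT no member came second in both libraries. Irf7 did in replicate 1 (10.4%, Irf1 6.75%) and Irf1 in replicate 2 (19.0%, Irf7 9.3%). In cDC1 the Irf8 share was 72.1 ± 4.03% in KO and 80.3 ± 2.93% in WT (n = 2 each). Per kilobase, Irf5 came next there at 9.30% and 6.89%. On the CPM scale Irf7 came next instead, at 5.0% in KO and 3.3% in WT, before Irf5 at 4.4% and 3.1%. The annotated exons of Irf7 merge into 1 block of 3776 bases, the whole span of the gene, which was its divisor. 3′ tags may not scale with exon length, and on the CPM scale, without division by length, the Irf8 share was 87.8% in pDC KO and 91.6% in pDC WT, 52.8% in cDC2 KO and 58.8% in cDC2 WT, and 82.2% in cDC1 KO and 87.8% in cDC1 WT.

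**Figure D1:**
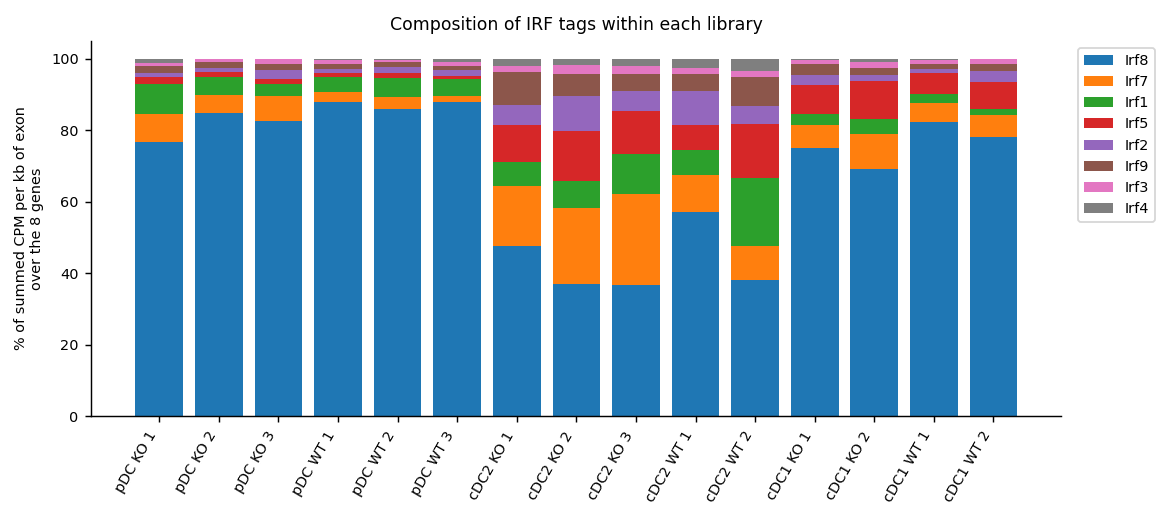
Composition of the family in each library, as the percent of the summed CPM per kilobase of exon taken by each of the 8 members (stacked bars from 0, libraries grouped as pDC KO, pDC WT, cDC2 KO, cDC2 WT, cDC1 KO and cDC1 WT). The Irf8 segment is the tallest in all 15 bars and is shortest in cDC2, at 40.4% on average in KO and 47.7% in WT.

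Irf8 (ENSMUSG00000041515) lies at chr8:120736358-120756694 on the plus strand of GRCm38. Its upstream sequence is shown, together with that of Irf1, because these were the members with called differences that held a gamma-activated site core (GAS, TTCNNNGAA, an element of interferon-gamma signalling) in the 250 bases before a RefSeq start. Capitals mark the GAS matches, which begin at positions -171 and -153 from the start in Irf8 and at -90 in Irf1.
Irf8 (GRCm38.p6 chr8:120736108-120736357, plus strand): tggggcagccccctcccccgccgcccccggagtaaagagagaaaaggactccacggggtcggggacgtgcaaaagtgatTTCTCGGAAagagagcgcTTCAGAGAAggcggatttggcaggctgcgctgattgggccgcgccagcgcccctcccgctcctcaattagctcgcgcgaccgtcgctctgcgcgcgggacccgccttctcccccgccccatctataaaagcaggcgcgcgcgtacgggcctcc
Irf1 (GRCm38.p6 chr11:53769764-53770013, plus strand): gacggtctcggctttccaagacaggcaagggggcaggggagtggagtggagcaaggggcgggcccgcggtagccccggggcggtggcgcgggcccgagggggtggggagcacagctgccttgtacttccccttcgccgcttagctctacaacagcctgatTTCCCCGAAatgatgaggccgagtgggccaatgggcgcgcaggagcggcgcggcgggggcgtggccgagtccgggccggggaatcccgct
The search covered both strands of RefSeq windows from 250 bases before to 50 bases after each start. It also covered the interferon-stimulated response element core (ISRE, GAAA, any 2 bases, GAAA), the Ets-IRF composite element (EICE, GGAA, any 2 bases, GAAA) and the cAMP response element (CRE, TGACGTCA). Of 32851 windows, 8.3% held the GAS letters, 3.44% the ISRE, 2.72% the EICE and 1.79% the CRE. Irf2 held an ISRE match and an EICE match that overlapped each other, at -241 and -247, and a GAS match at -224. No match to these letters lay in the windows of Irf3, Irf4, Irf5, Irf7 or Irf9, or in a further window each of Irf1 and Irf8.

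Irf8 read 5897, 8464 and 6696 CPM in the pDC KO libraries and 7282, 6675 and 7729 CPM in the pDC WT libraries. It read 1407, 766 and 903 CPM in cDC2 KO and 1707 and 758 CPM in cDC2 WT. In cDC1 the values were 3508 and 3077 CPM in KO and 5698 and 4731 CPM in WT. All pDC libraries lay above all cDC1 libraries, and all cDC1 libraries above all cDC2 libraries. The group means ran from pDC WT, 7229 ± 529 CPM (SD, n = 3), and pDC KO, 7019 ± 1314 CPM (n = 3), over cDC1 WT and cDC1 KO to cDC2 WT, 1233 ± 672 CPM (n = 2), and cDC2 KO, 1025 ± 338 CPM (n = 3). KO and WT values overlapped within pDC and within cDC2, so that those neighbours in the order did not differ beyond their spread.

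Irf8 was 6.85-fold higher in pDC than in cDC2 in KO mice, a log2 difference of 2.78 ± 0.31 (SE), and 5.87-fold higher in WT mice, 2.55 ± 0.36. Both passed edgeR's quasi-likelihood test over all genes, with Benjamini-Hochberg adjusted p = 2.54e-06 in KO and 4.95e-05 in WT. Both were called in each of the 15 fits that left out 1 library, though most of those libraries lay outside the groups compared. Without replicate 1 of cDC2 WT, the cDC2 library with the most Irf8, the WT difference was 3.26. In cDC2 relative to cDC1, Irf8 was 3.21-fold lower in KO, -1.68 ± 0.32 (edgeR adjusted p = 0.00893), and 4.23-fold lower in WT, -2.08 ± 0.37 (edgeR adjusted p = 0.00378). The KO call ended without cDC1 KO replicate 1 (edgeR adjusted p = 0.116), cDC1 KO replicate 2 (0.0669), cDC2 KO replicate 2 (0.0629) or cDC2 KO replicate 3 (0.0567). The WT difference was -2.79 without cDC2 WT replicate 1, and its call ended where only the groups of this comparison entered the fit (edgeR adjusted p = 0.0621). Between pDC and cDC1, Irf8 was 2.13-fold higher in pDC of KO mice, 1.09 ± 0.33 (edgeR adjusted p = 0.0257). That call ended without cDC1 KO replicate 1 (0.108), cDC1 KO replicate 2 (0.186) or pDC KO replicate 2 (0.0899). In WT mice the pDC value was 0.47 ± 0.33 above cDC1 on the log2 scale (edgeR adjusted p = 0.313). That difference did not pass, although the pDC WT libraries and the cDC1 WT libraries did not overlap.

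Within cDC1, the Irf8 values of KO mice lay below those of WT mice in every pairing of libraries, yet the log2 difference of -0.66 ± 0.36 did not pass (edgeR adjusted p = 1). An interval of 2 SE around it ran from -1.38 to 0.05. Beside it, the summed cDC1 markers were also lower in cDC1 KO than in cDC1 WT, and their part in the Irf8 value was not tested. Averaged over the subsets, the Irf8 difference between KO and WT was -0.32 ± 0.19 (edgeR adjusted p = 0.59).

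**Figure D2:**
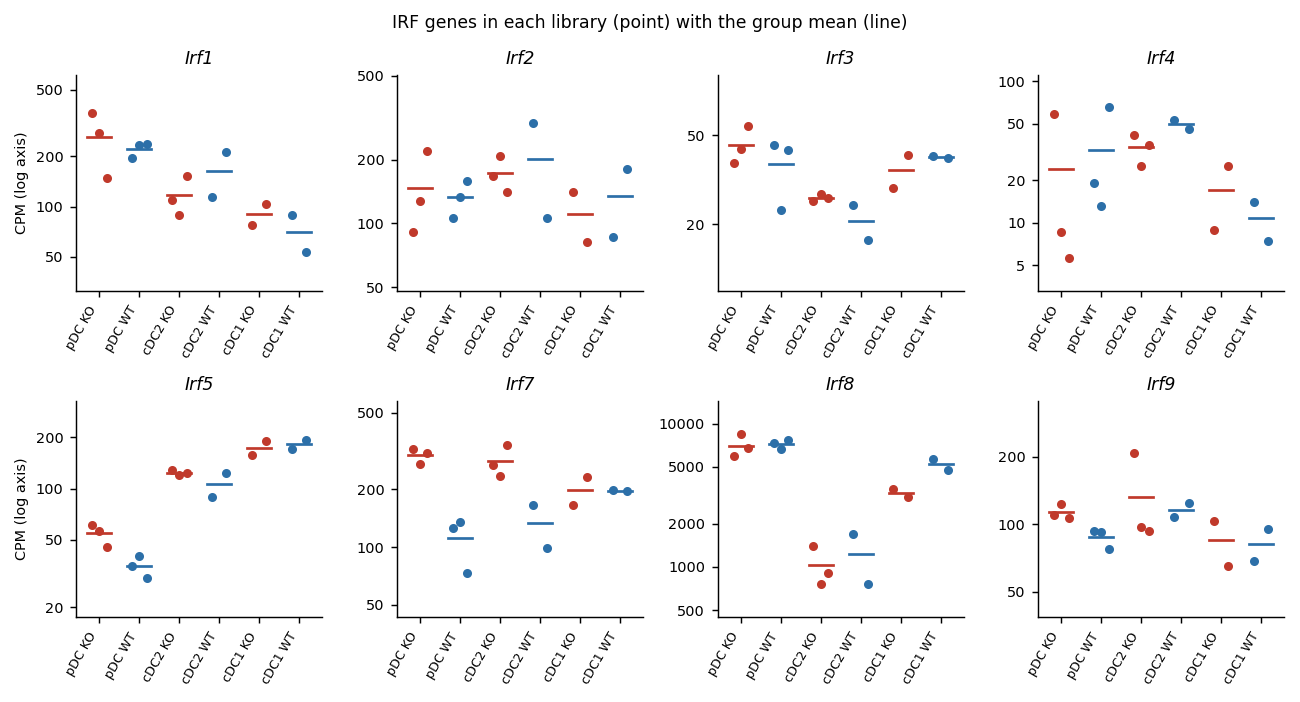
Level of each member in each library, in CPM on a log axis (points, red for KO and blue for WT; the line is the group mean). Irf8 sits highest in pDC and lowest in cDC2, Irf5 is lowest in pDC, Irf7 stands above WT in the KO libraries of pDC and cDC2, and Irf4 is spread widely within pDC.

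Irf4 (ENSMUSG00000021356, chr13:30749226-30766976, plus strand), the factor that pairs with PU.1 in cDC2 and is also used by activated lymphocytes and plasma cells, was among the 3 least abundant members per kilobase in every group. It read 41.8, 25.2 and 35.1 CPM in cDC2 KO and 53.2 and 46.1 CPM in cDC2 WT. In cDC1 it read 8.90 and 25.2 CPM in KO and 14.1 and 7.46 CPM in WT. In WT both cDC2 libraries were above both cDC1 libraries, while in KO the lowest cDC2 library and the highest cDC1 library met at 25.2 CPM. The log2 difference of cDC2 over cDC1 was 1.00 ± 0.86 in KO (edgeR adjusted p = 0.94) and 2.21 ± 0.97 in WT (edgeR adjusted p = 0.165), and neither passed. The WT value passed where no filter on low counts was used (edgeR adjusted p = 0.000266) and without pDC KO replicate 1 (edgeR adjusted p = 0.0474).

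The pDC libraries were split for Irf4, at 58.2, 8.61 and 5.60 CPM in KO and 19.0, 13.03 and 65.4 CPM in WT. A single library in each genotype stood above every cDC2 library, and the others lay below every cDC2 library. pDC relative to cDC2 was -0.49 ± 0.74 on the log2 scale in KO and -0.61 ± 0.82 in WT, with edgeR adjusted p = 0.678 and 0.644. Without pDC KO replicate 1 the KO difference was -2.25 and passed (edgeR adjusted p = 0.0165). The B and plasma cell list summed to 437, 310 and 549 CPM in the same pDC KO libraries and to 286, 277 and 449 CPM in the pDC WT libraries, and its part in the Irf4 values was not tested. The order of the group means was cDC2 WT (49.6 ± 5.01 CPM), cDC2 KO, pDC WT, pDC KO, cDC1 KO and cDC1 WT (10.8 ± 4.67 CPM), and all neighbours in it overlapped except cDC2 WT and cDC2 KO. The log2 difference of that pair, KO relative to WT, was -0.54 ± 0.82. Irf4 relative to WT was -0.43 ± 0.74 in pDC KO and 0.67 ± 0.95 in cDC1 KO, and the edgeR test called none of these.

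Irf8 and Irf4 mark opposite conventional fates, and the counts of Irf8 per count of Irf4 were taken within each library, a ratio that no scaling between libraries can move. It was 33.7, 30.4 and 25.7 in cDC2 KO and 32.1 and 16.4 in cDC2 WT. In cDC1 it was 394 and 122 in KO and 405 and 634 in WT, so the ratios of the conventional subsets did not overlap. pDC ranged from 101 to 1195 in KO and from 118 to 512 in WT, across the cDC1 range and above all cDC2 libraries.

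Irf1 (ENSMUSG00000018899, chr11:53770014-53778374, plus strand), induced by interferon-gamma, was highest in pDC. It read 363, 275 and 148 CPM in pDC KO and 196, 235 and 236 CPM in pDC WT. The cDC2 values were 110, 88.6 and 152 CPM in KO and 114 and 213 CPM in WT, and the cDC1 values 77.6 and 104 CPM in KO and 88.6 and 53.2 CPM in WT. All pDC libraries lay above all cDC1 libraries, while pDC and cDC2 overlapped in both genotypes.

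In pDC relative to cDC1, Irf1 was 2.89-fold higher in KO, 1.53 ± 0.40 on the log2 scale (edgeR adjusted p = 0.00946), and 3.14-fold higher in WT, 1.65 ± 0.40 (edgeR adjusted p = 0.00502). The KO call ended without cDC1 KO replicate 1 (edgeR adjusted p = 0.12) and the WT call without cDC1 WT replicate 2 (0.0826). Relative to cDC2, Irf1 was 2.24-fold higher in pDC of KO mice, 1.17 ± 0.34 (edgeR adjusted p = 0.017). That call ended without cDC2 KO replicate 1 (0.0581), cDC2 KO replicate 2 (0.0763) or pDC KO replicate 1 (0.0912). In WT mice the same difference was 0.44 ± 0.38 and did not pass (edgeR adjusted p = 0.44). cDC2 relative to cDC1 was 0.36 ± 0.38 in KO (edgeR adjusted p = 0.984) and 1.21 ± 0.42 in WT (0.08). The WT value passed with no filter on low counts (edgeR adjusted p = 0.0256) and with DESeq2 (0.0285). The Irf1 means followed the order pDC KO (262 ± 108 CPM, n = 3), pDC WT (222 ± 22.6 CPM, n = 3), cDC2 WT, cDC2 KO, cDC1 KO and cDC1 WT (70.9 ± 25.1 CPM, n = 2), with overlap between each pair of neighbours.

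Irf2 (ENSMUSG00000031627, chr8:46739732-46847458, plus strand), which competes with IRF1 for DNA, showed no called difference. Group means lay between 111 ± 41.9 CPM in cDC1 KO and 202 ± 136 CPM in cDC2 WT (SD, n = 2 each). The single libraries ranged from 81.5 to 298 CPM, with the highest and one of the lower values, 106 CPM, both in cDC2 WT. In WT the pDC level relative to cDC2 was -0.60 ± 0.44 on the log2 scale (edgeR adjusted p = 0.355), and it was 0.34 without cDC2 WT replicate 1. Neighbours in the order of Irf2 means did not differ beyond their spread.

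Irf5 (ENSMUSG00000029771, chr6:29526625-29541871, plus strand), which acts below MyD88 in inflammatory cytokine induction and shares 411 bases of its exons, on the opposite strand, with Tnpo3, was lowest in pDC and highest in cDC1. Reads of Tnpo3 could enter its count only if strand was ignored in counting, which the labels do not say. Irf5 read 61.0, 56.5 and 45.4 CPM in pDC KO and 34.9, 40.3 and 29.6 CPM in pDC WT. In cDC2 it read 129, 120 and 124 CPM in KO and 88.6 and 124 CPM in WT, and in cDC1 157 and 191 CPM in KO and 171 and 194 CPM in WT. The lowest conventional library was above the highest pDC library, and all cDC1 libraries were above all cDC2 libraries.

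Irf5 was 3.20-fold lower in pDC than in cDC1 in KO, -1.68 ± 0.26 on the log2 scale (edgeR adjusted p = 0.000151), and 5.23-fold lower in WT, -2.39 ± 0.27 (edgeR adjusted p = 3.48e-06). Relative to cDC2 it was 2.28-fold lower in pDC of KO mice, -1.19 ± 0.24 (edgeR adjusted p = 0.00129), and 3.04-fold lower in WT mice, -1.61 ± 0.27 (edgeR adjusted p = 0.000238). Each of these 4 calls held in 15 of 15 fits that left out 1 library. Most of those libraries lay outside the groups compared. cDC2 relative to cDC1 was -0.49 ± 0.26 in KO and -0.78 ± 0.29 in WT, and neither passed (edgeR adjusted p = 0.689 and 0.105). Within pDC every KO library was above every WT library, with a log2 difference of 0.64 ± 0.24 that did not pass (edgeR adjusted p = 0.404). The Irf5 means were highest in cDC1 WT (182 ± 15.6 CPM), followed by cDC1 KO, then cDC2 KO before cDC2 WT, and lowest in pDC, with pDC WT (34.9 ± 5.33 CPM) below pDC KO (54.3 ± 8.07 CPM). KO and WT neighbours of both conventional subsets overlapped.

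Irf3 (ENSMUSG00000003184, chr7:44997648-45002848, plus strand), the constitutively made target of TBK1 below cGAS-STING, RIG-I-like receptors and TLR3, was low in all groups. It averaged 45.4 ± 8.93 CPM in pDC KO and 37.2 ± 12.2 CPM in pDC WT (SD, n = 3 each). Its cDC2 means were 26.2 ± 0.978 CPM in KO (n = 3) and 20.6 ± 5.13 CPM in WT (n = 2), and its cDC1 means 35.0 ± 8.54 CPM in KO and 40.0 ± 0.461 CPM in WT (n = 2 each). pDC relative to cDC2 was 0.79 ± 0.30 on the log2 scale in KO (edgeR adjusted p = 0.0628) and 0.86 ± 0.35 in WT (0.085). Neither passed, though the KO difference passed under DESeq2 (adjusted p = 0.0302), limma voom (0.0399), RLE scaling in edgeR (0.0499), the stricter filter (0.0392) and the fit of pDC and cDC2 KO libraries alone (0.0346). It also passed without pDC WT replicate 2 (edgeR adjusted p = 0.0376) or pDC WT replicate 3 (0.0484), and the WT difference passed without pDC WT replicate 2 (edgeR adjusted p = 0.0275). cDC2 relative to cDC1 in WT was -0.96 ± 0.38 (edgeR adjusted p = 0.12). Neighbouring Irf3 means in the order pDC KO, cDC1 WT, pDC WT, cDC1 KO, cDC2 KO and cDC2 WT overlapped except cDC1 KO over cDC2 KO and cDC2 KO over cDC2 WT.

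Irf9 (ENSMUSG00000002325, chr14:55603571-55610030, plus strand), the DNA-binding subunit of ISGF3, also showed no called difference. It averaged 113 ± 8.51 CPM in pDC KO and 88.0 ± 8.64 CPM in pDC WT (SD, n = 3 each), 133 ± 65.6 CPM in cDC2 KO (n = 3), 116 ± 11.4 CPM in cDC2 WT, 84.7 ± 27.1 CPM in cDC1 KO and 81.9 ± 19.0 CPM in cDC1 WT (n = 2 each). The cDC2 KO spread came from 1 library at 209 CPM beside 96.9 and 93.4 CPM. In KO, cDC2 relative to cDC1 was 0.65 ± 0.35 on the log2 scale (edgeR adjusted p = 0.681). From the highest to the lowest Irf9 mean, cDC2 KO and then cDC2 WT came before pDC KO, followed by pDC WT, cDC1 KO and cDC1 WT. All neighbours overlapped except KO and WT of pDC.

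Irf7 (ENSMUSG00000025498, chr7:141262706-141266481, minus strand), which interferon itself induces and which amplifies interferon production, had the widest difference between KO and WT of the 8 members in pDC, in cDC2 and in the average over subsets. The 250 bases before its RefSeq start are shown for that reason. They hold no match to the 4 motifs, so no letters are in capitals, which says nothing about sites elsewhere.
Irf7 (GRCm38.p6 chr7:141266425-141266674, minus strand): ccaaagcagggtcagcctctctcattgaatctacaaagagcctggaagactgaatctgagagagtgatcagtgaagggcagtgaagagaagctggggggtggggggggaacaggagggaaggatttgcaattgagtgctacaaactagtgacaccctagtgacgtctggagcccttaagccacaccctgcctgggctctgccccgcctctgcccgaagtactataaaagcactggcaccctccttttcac

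Irf7 read 324, 271 and 309 CPM in pDC KO, against 125, 135 and 73.2 CPM in pDC WT. It read 268, 235 and 339 CPM in cDC2 KO, against 166 and 99.1 CPM in cDC2 WT. In cDC1 it read 166 and 232 CPM in KO, against 199 and 195 CPM in WT. KO libraries were above all WT libraries in pDC and in cDC2, while in cDC1 the WT values lay between the KO values.

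The Irf7 difference between KO and WT was 2.71-fold in pDC, 1.44 ± 0.28 on the log2 scale with an interval of 2 SE from 0.87 to 2.01, and 2.12-fold in cDC2, 1.08 ± 0.32 with an interval from 0.44 to 1.73. In cDC1 it was 0.02 ± 0.34 with an interval from -0.67 to 0.70. None of these passed over all genes (edgeR adjusted p = 0.0865 in pDC, 0.166 in cDC2 and 1 in cDC1), nor did the average over subsets, 0.85 ± 0.18, 1.80-fold (edgeR adjusted p = 0.0621). The pDC value lay between 1.20 and 1.60 in the fits that left out 1 library, with edgeR adjusted p between 0.0636 and 0.173. Over the other settings it lay between 1.34 and 1.46 with adjusted p between 0.000535 and 0.27. DESeq2 called Irf7 in pDC (adjusted p = 0.000535) and in the average (0.00446), as did edgeR with no filter on low counts, with adjusted p = 0.00119 and 0.00645, and limma voom called the average alone (0.0382). The difference between the pDC and cDC1 effects was 1.42 ± 0.44 (edgeR adjusted p = 0.336) and that between the cDC2 and cDC1 effects 1.07 ± 0.47 (edgeR adjusted p = 0.568), so the KO effects were not shown to differ between subsets. Over all tested genes the edgeR test called 0% in the pDC against cDC1 and in the pDC against cDC2 comparison of effects, and 0.00851% in the cDC2 against cDC1 one.

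In the fit of all libraries, the edgeR test called no Irf7 difference between subsets. Whether the order of pDC and cDC1 changed with genotype is the comparison of KO effects above, 1.42 ± 0.44, which did not pass (edgeR adjusted p = 0.336). With 3 pDC and 2 cDC1 libraries per genotype, the libraries of these subsets did not overlap for Irf7. pDC lay above cDC1 in KO and below it in WT. Such separation was common among the members. In KO 4 members were higher in pDC and 1 was lower, with 3 overlapping. In WT 2 were higher and 2 lower, with 4 overlapping. The share of all tested genes that separated is not given here. The separation is therefore not read as a change of order. For Irf7, pDC relative to cDC1 was 0.60 ± 0.32 on the log2 scale in KO and -0.82 ± 0.31 in WT. The edgeR adjusted p was 0.2 in KO and 0.0544 in WT. The WT value passed with DESeq2 (adjusted p = 0.0432) and in edgeR without cDC2 WT replicate 1 (0.0444), cDC2 WT replicate 2 (0.0441) or pDC WT replicate 2 (0.0427). pDC relative to cDC2 was 0.10 ± 0.28 in KO and -0.25 ± 0.31 in WT, and cDC2 relative to cDC1 was 0.50 ± 0.31 in KO and -0.57 ± 0.34 in WT, none of which the edgeR test called. The group means ran from pDC KO (301 ± 27.7 CPM) over cDC2 KO, cDC1 KO, cDC1 WT and cDC2 WT to pDC WT (111 ± 33.2 CPM), with cDC2 KO above cDC1 KO and cDC1 WT above cDC2 WT without overlap and the other neighbours overlapping.

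**Figure D3:**
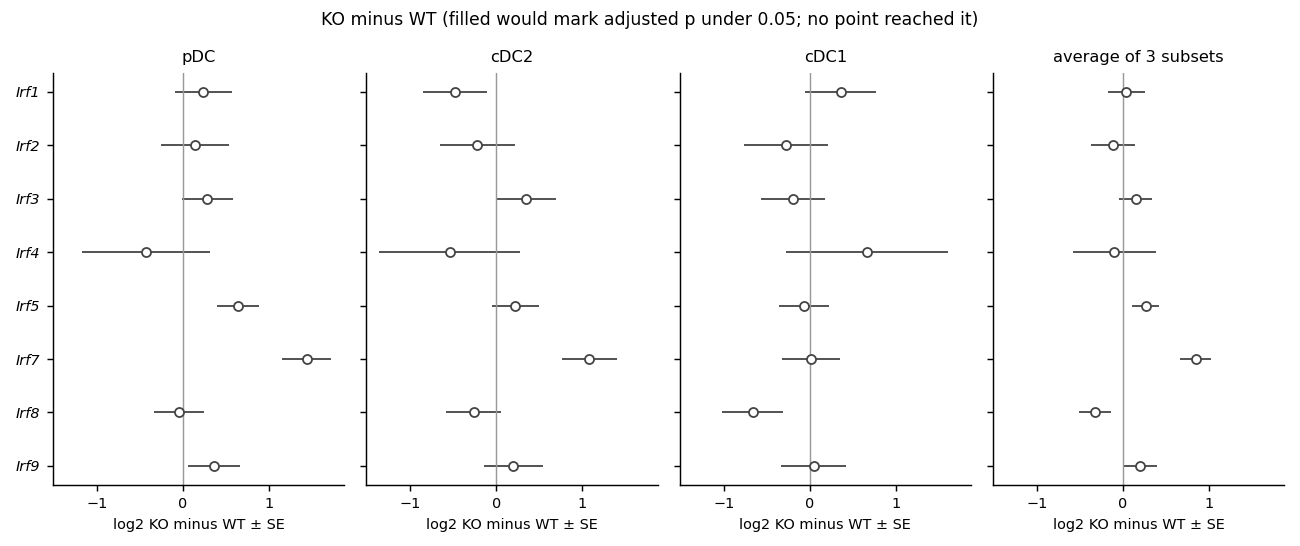
KO minus WT difference of each member on the log2 scale in pDC, cDC2, cDC1 and averaged over the subsets (points with SE bars; open points did not pass the adjusted p of 0.05). Irf7 lies farthest from 0 in pDC (1.44) and cDC2 (1.08) and near 0 in cDC1 (0.02), and all points are open.

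Taken as a family, no member was called between KO and WT in any subset or in the average by the edgeR test. Among all tested genes the calls were 0.0681% in pDC, 0.119% in cDC2, 0.0255% in cDC1 and 0.306% in the average, so few calls were made anywhere. At an unadjusted p under 0.05, the edgeR test took 2 members in pDC (Irf5 and Irf7), 1 in cDC2 (Irf7), 0 in cDC1 and 1 in the average (Irf7), where 10.6%, 13.3%, 3.83% and 10.2% of tested genes fell under that level. In pDC, KO and WT libraries did not overlap for 3 members, Irf5, Irf7 and Irf9, all higher in KO, as for 5.76% of tested genes. In cDC2 that held for 2 members that were higher, Irf3 and Irf7, and for 1 that was lower, Irf4, shares close to the 23.1% and 11.7% of tested genes. In cDC1 only Irf8 did not overlap, being lower in KO, as for 17.8% of tested genes. The member medians were 0.26 in pDC, -0.01 in cDC2, -0.03 in cDC1 and 0.09 in the average, beside 0, 0.0884, 0 and 0.0532 over all tested genes.

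The subset comparisons called more. Between pDC and cDC1 the edgeR test called 3 of 8 members in KO (Irf1 and Irf8 higher, Irf5 lower) and 2 in WT (Irf1 higher, Irf5 lower), where 21.5% and 27.7% of tested genes were called. Between pDC and cDC2 it called 3 members in KO (Irf1 and Irf8 higher, Irf5 lower) and 2 in WT (Irf8 higher, Irf5 lower), against 25.9% and 23.6% of tested genes. Between cDC2 and cDC1 it called Irf8 alone, lower in both genotypes, against 1.27% of tested genes in KO and 8.73% in WT. In WT these counts were near the share of all tested genes. The KO and WT comparisons share no libraries.

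**Figure D4:**
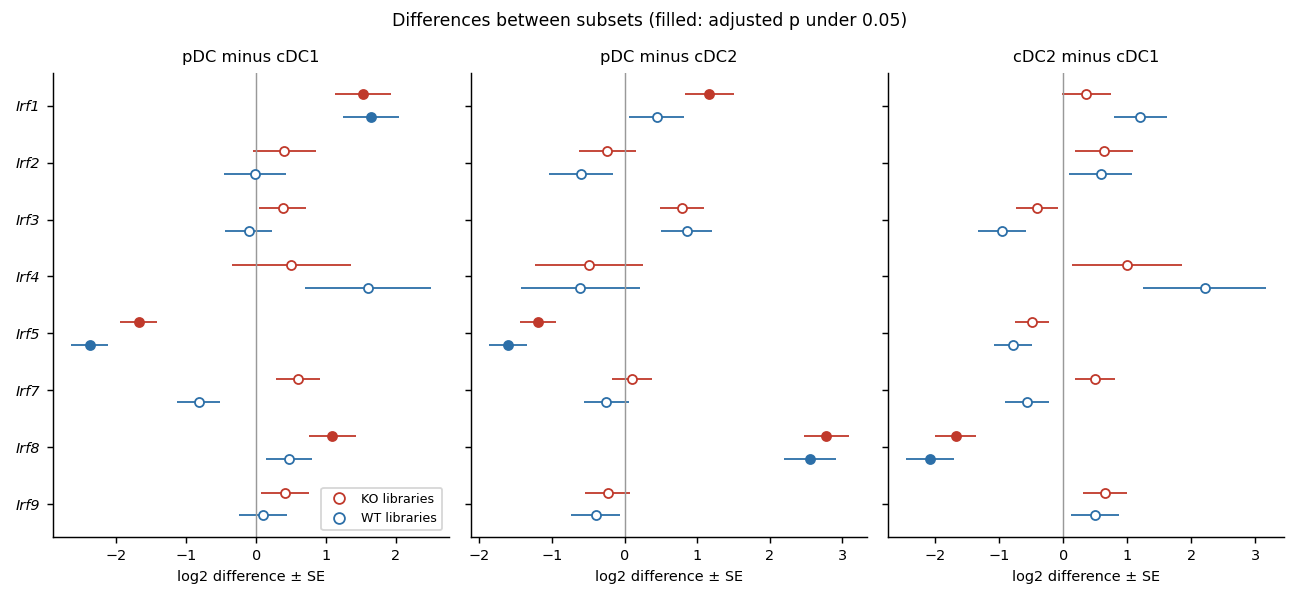
Difference between subsets for each member on the log2 scale, pDC minus cDC1, pDC minus cDC2 and cDC2 minus cDC1 (points with SE bars, red for KO and blue for WT; filled points passed an adjusted p of 0.05). Irf5 is below 0 and filled in both pDC panels for both genotypes, and Irf8 is filled in every panel except pDC minus cDC1 in WT, where it is 0.47.

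Genes with the likest pattern were searched among 5984 genes with a mean log2 CPM of at least 4, by Pearson correlation of log2 CPM over the 15 libraries, which share subsets and so lend each other their differences. Irf8 was followed most closely by P2ry14 (0.976), a nucleotide-sugar receptor, Clec12a (0.967), an inhibitory lectin, and Tubb2b (0.959), a tubulin. Irf5 was followed by Adam8 (0.987), a metalloprotease, Gm6377 (0.981) and H2-Ab1 (0.968), an MHC class II chain. Irf1 was followed by Tceal9 (0.952), Zfp1 (0.935) and Sdc4 (0.933), and Irf7 by H2afv (0.918), Lgals3bp (0.893) and H2-Oa (0.867). Irf2 was followed by Cebpg (0.929) and, less closely, by Lbh (0.803). The leading values were lower for Irf3, led by Cdc16 (0.881), for Irf4, led by Mcph1 (0.88) with Nfkb1 (0.869) next, and for Irf9, led by Impa1 (0.828). Among the members themselves the likest pair was Irf3 and Irf8 (0.753), and the most opposed pair was Irf1 and Irf5 (-0.748).

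Among the mRNAs of 10 DNA-binding partners of IRFs, those of Spib, Spi1 and Batf3 set pDC apart from both conventional subsets. Spib, the Ets factor of pDC, averaged 348 ± 20.2 CPM in pDC KO and 296 ± 57.4 CPM in pDC WT, 36.2 ± 3.12 CPM in cDC2 KO and 13.4 ± 5.10 CPM in cDC2 WT, and 12.1 CPM in cDC1 KO and 7.64 CPM in cDC1 WT. Spi1, which encodes PU.1, ran the other way, at 19.2 ± 5.26 CPM in pDC KO and 16.7 ± 2.79 CPM in pDC WT, against 288 and 160 CPM in cDC2 KO and WT and 223 and 224 CPM in cDC1 KO and WT. Relative to cDC1, Spib was higher in pDC by 4.85 ± 0.35 on the log2 scale in KO and 5.28 ± 0.37 in WT, with edgeR adjusted p = 3.72e-08 and 1.77e-08. Spi1 in pDC fell by 3.54 on the log2 scale in KO and by 3.74 in WT relative to cDC1, with edgeR adjusted p = 1.13e-07 and 5.46e-08. Batf3, which supports Irf8 expression in cDC1, was also lower in pDC than in cDC1. Its log2 difference was -4.83 ± 0.90 in KO (edgeR adjusted p = 0.00115) and -5.62 ± 0.95 in WT (0.000434). Batf3 did not set cDC1 apart from cDC2. It averaged 80.7 and 76.0 CPM in cDC1 KO and WT, and 86.3 and 73.0 CPM in cDC2 KO and WT. Of the 10 partners tested, the edgeR test called 1 higher and 2 lower in pDC than in cDC1 in KO and 2 higher and 3 lower in WT, against 21.5% and 27.7% of tested genes, with list medians of 0.17 and -0.09 beside -0.09 and -0.05 over all tested genes. In cDC2 relative to cDC1 it called 1 higher in KO, Spib, and 0 in WT, against 1.27% and 8.73% of tested genes. Between KO and WT it called none of the 10 in any subset. Of all tested genes it called 0.0681% in pDC, 0.119% in cDC2 and 0.0255% in cDC1. In cDC2 the smallest p of the list was that of Spib, at 1.45 ± 0.31 (edgeR adjusted p = 0.0582).

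Upstream of IRF3, IRF5 and IRF7, the endosomal receptor genes Tlr7 and Tlr9 were higher in pDC than in cDC1 and Tlr3 was lower. Tlr7, which senses single-stranded RNA, averaged 185 ± 29.9 CPM in pDC KO and 158 ± 25.8 CPM in pDC WT. It averaged 7.27 and 4.40 CPM in cDC2 KO and WT, and 1.62 and 0.833 CPM in cDC1 KO and WT, so that every pDC library was above every conventional library. Tlr9, which senses CpG DNA, averaged 822 ± 203 CPM in pDC KO and 854 ± 31.1 CPM in pDC WT, against 248 and 265 CPM in cDC2 and 201 and 195 CPM in cDC1. Tlr9 was higher in pDC than in cDC1 by 2.03 ± 0.31 on the log2 scale in KO (edgeR adjusted p = 0.000103) and 2.13 ± 0.31 in WT (6.37e-05). Tlr3, a double-stranded RNA sensor, was at most 1.53 CPM in pDC, against 78.8 to 82.7 CPM in cDC1 KO and 46.4 to 155 CPM in cDC1 WT. It read 12.6 to 34.7 CPM in cDC2 KO and 6.03 to 100.3 CPM in cDC2 WT, so that cDC2 WT reached into the cDC1 WT range. Of 18 sensors, adaptors and kinases tested, the edgeR test called 5 higher and 3 lower in pDC than in cDC1 in KO, and 4 higher and 1 lower in WT, against 21.5% and 27.7% of all tested genes. List medians there were 0.06 in KO and 0.21 in WT, beside -0.09 and -0.05 over all tested genes, and the WT count was near the share of all genes. Between KO and WT it called 0 of the 18 in each subset, with medians of -0.03 in pDC, 0.34 in cDC2 and 0.13 in cDC1. Over all tested genes the medians were 0, 0.0884 and 0, with 0.0681%, 0.119% and 0.0255% called, so 0 calls lay near those shares.

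Among 12 interferon receptor and JAK-STAT genes, both chains of the type I receptor were higher in pDC. Ifnar1 averaged 419 ± 62.0 CPM in pDC KO and 441 ± 57.2 CPM in pDC WT, against 143 CPM in cDC1 KO and 142 CPM in cDC1 WT. It was higher by 1.55 ± 0.28 on the log2 scale in KO and 1.64 ± 0.28 in WT, with edgeR adjusted p = 0.000565 and 0.000303. Ifnar2 was higher by 2.40 ± 0.41 in KO and 2.58 ± 0.42 in WT (edgeR adjusted p = 0.000332 and 0.000173). Ifngr1, the ligand-binding chain of the interferon-gamma receptor, was lower in pDC by -3.74 ± 0.63 in KO and -3.80 ± 0.63 in WT (edgeR adjusted p = 0.000464 and 0.000342). In all, 2 were called higher and 2 lower in pDC than in cDC1 in KO, and 3 higher and 4 lower in WT, against 21.5% and 27.7% of all tested genes. List medians were 0.12 and -0.30, beside -0.09 and -0.05 over all tested genes. None of the 12 was called between KO and WT in any subset, against 0.0681%, 0.119% and 0.0255% of tested genes in pDC, cDC2 and cDC1.

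Downstream, 28 known targets of ISGF3, the complex that holds IRF9, had their highest mean level in cDC2. The mean log2 CPM of the 28 per library was 4.64, 5.11 and 4.80 in pDC KO and 4.13, 4.40 and 3.92 in pDC WT. It was 6.41, 6.53 and 6.31 in cDC2 KO and 5.58 and 5.72 in cDC2 WT, and 5.33 and 5.11 in cDC1 KO and 4.39 and 5.03 in cDC1 WT. KO libraries lay above WT libraries within each subset, and pDC and cDC1 overlapped in WT. In pDC relative to cDC1 the edgeR test called 3 higher and 5 lower in KO and 1 higher and 6 lower in WT, with list medians of -0.26 and -0.51, against 21.5% and 27.7% of all tested genes called. In pDC relative to cDC2 the list medians were -1.10 in KO and -1.48 in WT, beside -0.08 and 0.07 over all tested genes. The edgeR test called 2 higher and 16 lower in KO and 1 higher and 19 lower in WT, against 25.9% and 23.6% of all tested genes. Bst2, the tether that the pDC marker list also holds, was among the higher ones, by 2.29 ± 0.28 in KO and 2.51 ± 0.33 in WT (edgeR adjusted p = 7.08e-06 and 2.72e-05). In cDC2 relative to cDC1 the medians were 0.87 in KO and 0.73 in WT, beside -0.02 and -0.05 over all tested genes. There 5 were called higher in KO and 9 in WT and none lower, against 1.27% and 8.73% of all tested genes. Leaving out single libraries moved these last counts to between 1 and 6 in KO and between 1 and 10 in WT. The shares of all genes called in those fits are not given here.

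Between KO and WT, 26 of the 28 ISGF3 targets had a positive log2 difference in pDC, 25 in cDC2 and 25 in cDC1. Their medians were 0.67, 0.66 and 0.43, beside 0, 0.0884 and 0 over all tested genes. The edgeR test called none of the targets in a single subset, where it called 0.0681%, 0.119% and 0.0255% of tested genes. With no filter on low counts it called 6 in pDC and 3 in cDC2, DESeq2 called 3 in pDC and 2 in cDC2, and edgeR called 1 in pDC without pDC WT replicate 2 and 1 in cDC2 without pDC KO replicate 3. In the average over subsets the edgeR test called 3, Ifit1, Isg15 and Rsad2, all higher in KO, against 0.238% of tested genes called higher. There 27 of the 28 values were positive, with a median of 0.61 beside 0.0532 over all tested genes. Rsad2, which encodes the antiviral enzyme viperin, averaged 131 ± 7.01 CPM in pDC KO and 60.2 ± 23.0 CPM in pDC WT, 327 ± 10.9 CPM in cDC2 KO and 165 ± 8.96 CPM in cDC2 WT, and 98.1 ± 6.12 CPM in cDC1 KO and 69.5 ± 12.1 CPM in cDC1 WT. Its average difference was 0.87 ± 0.17 (edgeR adjusted p = 0.0364). Dhx58, a RIG-I-like receptor regulator, averaged 27.2 ± 7.20 CPM in pDC KO and 7.87 ± 3.35 CPM in pDC WT, a log2 difference of 1.79 ± 0.37 that did not pass (edgeR adjusted p = 0.12). The number of targets called in the average varied with the libraries used. No target was called without cDC2 KO replicate 1, cDC2 KO replicate 2, cDC2 WT replicate 1 or any one of the 4 cDC1 libraries, 1 was called without cDC2 KO replicate 3, pDC KO replicate 1 or pDC KO replicate 2, and 2 without pDC WT replicate 3. The median stayed between 0.52 and 0.77 in those fits. DESeq2 called 6 in the average. The shares of all genes called under these other settings and left-out libraries are not given here. The changed counts therefore stand without a background and are not read as particular to the targets. Of the subset markers, 1 of 10 cDC2 markers and 1 of 10 pDC markers were called higher in KO in the average, and 0 of 10 cDC1 markers. Within subsets, 1 cDC2 marker was called higher in pDC, 1 higher in cDC1 and 1 lower in cDC2. In cDC1, 1 pDC marker was called higher. Marker lists of other cell types also had medians away from 0 between KO and WT in the average, with no gene called in the lists that follow. An NK cell list had 6 of 7 tested genes positive and a median of 1.12, and a monocyte and neutrophil list 6 of 8 positive and a median of 0.88. A thymocyte and T cell list had 0 of 11 positive and a median of -0.62. An erythroid list had 0 of 3 tested genes positive and a median of -2.02, at summed levels of at most 41.6 CPM, in a pDC WT library. NK cell markers summed to 145 to 221 CPM in pDC KO and 150 to 176 CPM in pDC WT, to 164 to 223 CPM in cDC2 KO and 213 to 228 CPM in cDC2 WT, and to 45.2 to 63.5 CPM in cDC1 KO and 25.04 to 38.6 CPM in cDC1 WT. Ncr1 and Klrb1c of that list were at 0 in all pDC and in the cDC2 WT libraries. Monocyte and neutrophil markers summed to 882 to 1156 CPM in pDC KO and 785 to 1448 CPM in pDC WT, to 379 to 731 CPM in cDC2 KO and 548 to 1239 CPM in cDC2 WT, and to 240 to 315 CPM in cDC1 KO and 226 to 471 CPM in cDC1 WT. Their part in the target values was not tested.

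**Figure D5:**
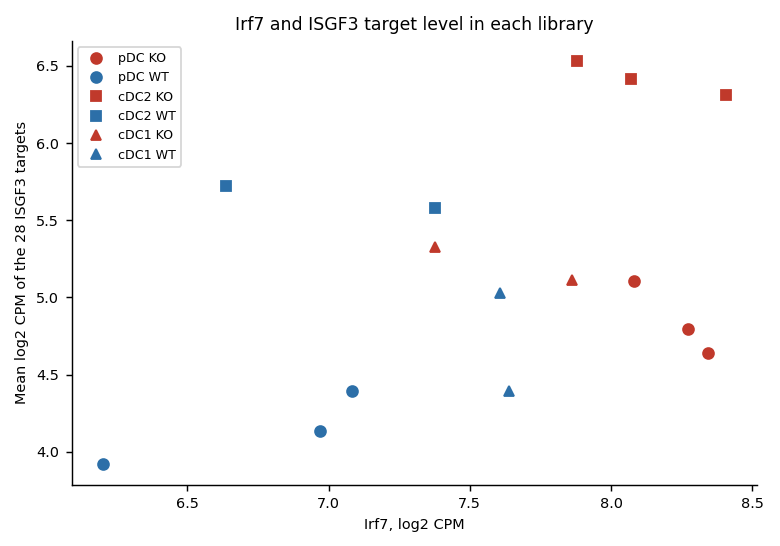
Irf7 level (log2 CPM, horizontal axis) against the mean log2 CPM of 28 ISGF3 targets (vertical axis), 1 point per library, red for KO and blue for WT, with a marker shape per subset. Within pDC and within cDC2 the KO points lie above and to the right of the WT points, and cDC2 KO libraries reach the highest target level, 6.31 to 6.53.

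Among 22 targets of interferon-gamma and IRF1, calls fell on both sides even where Irf1 itself was higher. In pDC relative to cDC1 the edgeR test called 4 higher and 4 lower in KO and 5 higher and 5 lower in WT, against 21.5% and 27.7% of all tested genes. List medians were -0.36 and 0.12, beside -0.09 and -0.05 over all tested genes. Gbp4, an interferon-gamma-induced GTPase, was higher in pDC by 3.10 ± 0.34 on the log2 scale in KO and 3.82 ± 0.36 in WT, with edgeR adjusted p = 2.92e-06 and 5.37e-07. Cxcl10, a T cell chemokine, was lower, by -3.01 ± 0.47 in KO and -2.45 ± 0.47 in WT, with edgeR adjusted p = 0.000121 and 0.000812. Between KO and WT none of the 22 was called in pDC, cDC2, cDC1 or the average, with medians of 0.15, 0.62, 0.41 and 0.33. Over all tested genes the medians were 0, 0.0884, 0 and 0.0532, with 0.0681%, 0.119%, 0.0255% and 0.306% called. Among 8 IRF-binding cofactors, Irf2bp2, a corepressor named for its binding to IRF2, averaged 1397 ± 426 CPM in pDC KO and 1150 ± 32.1 CPM in pDC WT, against 309 ± 35.3 CPM in cDC1 KO and 480 ± 173 CPM in cDC1 WT. Its difference was 2.18 ± 0.32 in KO and 1.26 ± 0.30 in WT (edgeR adjusted p = 6.52e-05 and 0.00463). It was the one cofactor called higher in pDC than in cDC1, beside 1 called lower in each genotype. Of all tested genes 21.5% in KO and 27.7% in WT were called there. Medians of the 8 cofactors were 0.36 in KO and -0.16 in WT, beside -0.09 and -0.05 over all tested genes. No cofactor was called between KO and WT, where few of all tested genes were called either.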

How the data were processed

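The deposited table held whole-number counts per gene that the authors had made from 3′ tag libraries. Per the labels' protocols the libraries were strand-specific and went through 12 PCR cycles, with no molecular identifiers mentioned. STAR, HTSeq and DESeq2 are listed in the submitters' processing notes, as is the mm10 build. Which step each served, in which version, and the strand setting of the counting are not given in the sources used. Ensembl identifiers were matched to symbols with GENCODE for 21745 of 22165 genes, and exon lengths are unions of annotated exons. Total counts per library set the precision, and SDs and intervals cover the spread between libraries only.

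Library sizes were scaled by TMM, which gave the CPM values. Genes passing filterByExpr over the 6 groups were fitted together in all 15 libraries with edgeR 4.0.16 (R 4.3.3, robust quasi-likelihood, 1 coefficient per group, common biological coefficient of variation 0.395), and the genes left out held 0.0538% of counts. The 13 comparisons were tested, p-values were adjusted by Benjamini-Hochberg over all tested genes, and the threshold was 0.05, two-sided. Alternatives were RLE scaling, no filter, a filter of 10 CPM in 2 libraries, a replicate block, offsets for length and GC, only the groups of the comparison, limma 3.58.1 voom with sample weights, DESeq2 1.42.0, a threshold of 0.1, and leaving out each library.

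The members and the pathway lists were chosen with earlier results of these data known. Every member is named, of each list up to 4 genes with the smallest p per comparison, and 3 genes per pattern search. Sequences are from RefSeq on GRCm38.p6. Protein sequences were not used here.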

Additional observations from a re-analysis of the deposited data

How the results depend on the processing

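Under 1102 alternative settings of 46 member values, 1053 kept their direction and their side of the threshold. In cDC2 minus cDC1 of WT mice, 1 called member became 2 at a threshold of 0.1 and with DESeq2, 3 with no filter, and 0 with only the groups of that comparison. Between KO and WT, 0 called members became 1, Irf7, in pDC at a threshold of 0.1, with no filter and with DESeq2, and in the average at those settings and with limma voom. Leaving out single libraries gave 1 to 3 called members in pDC minus cDC1 of either genotype, 2 to 4 in pDC minus cDC2 of KO, 2 to 3 in that of WT, 0 to 1 in cDC2 minus cDC1 of KO, 1 to 2 in that of WT, and 0 to 0 in the KO comparisons and in the differences between KO effects. Why these counts moved was not tested. The shares of all genes called under these settings are not given here.

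The near-zero Irf7 difference between KO and WT in cDC1, 0.02, was -0.0230 with RLE scaling and -0.0231 with DESeq2, -0.0091 with no filter, -0.0055 with the stricter filter and -0.0040 with limma voom, and ranged from -0.24 to 0.24 without single libraries. Without single libraries, Irf2 in pDC minus cDC2 of WT ranged from -1.16 to 0.34, Irf7 in that comparison from -0.58 to 0.17, Irf4 between KO and WT from -0.26 to 1.24 in cDC1 and from -2.19 to 0.59 in pDC. RLE scaling moved the median over all genes of the pDC minus cDC2 KO effects to -0.0293, against -0.135.

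Same-numbered KO and WT libraries of a subset showed no steady shared deviation. The correlations of their deviations were -0.235 in cDC1, 0.172 and -0.146 in cDC2, and -0.0878, 0.131 and 0.00697 in pDC. Same-numbered libraries of different subsets within a genotype had correlations from -0.364 (cDC2 KO and pDC KO, number 3) to 0.258 (cDC2 KO and cDC1 KO, number 1). In a group of 2 libraries the deviations mirror each other, so these correlations cannot settle whether the numbers mark pairs. The numbers were not taken as pairs, and whether subsets shared mice was not tested. The replicate block changed 0 member calls, with 0 members called between KO and WT in each subset, as did crossing the cDC1 WT numbers, which was chosen after seeing the data. Groups of 2 or 3 libraries limit every comparison, and Irf4, at 32 counts in its lowest library, has the least depth.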
